A study of Mus musculus with 10 samples.

Results

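The genes described here are 10 genes of heme and iron handling in mouse microglia, which are Hebp1, Hmox1, Hmox2, Fech, Blvra, Blvrb, Fth1, Ftl1, Slc40a1 and Tfrc, out of 53697 genes in the files. They were found by their symbols, and the list was chosen from the comparison of knockout and wild type libraries in these same data, so that comparison is given for the 10 genes as a description. No p-value is reported for it, and how many of the 10 passed a threshold is given only as a count beside the share of all genes, from which nothing is read. All 10 passed the filter on low counts, among 13916 genes in all. The cells were microglia, the macrophages that live in the brain, taken by cell sorting from untreated female mice, with 5 RNA-seq libraries per genotype. One genotype, DKO, lacked both Bhlhe40 and Bhlhe41 (Bhlhe40-/-Bhlhe41-/-), a pair of related basic helix-loop-helix repressors, in the whole animal and throughout life. The other, WT, was C57BL/6J or Rosa26Stop-YFP, a reporter strain, by the study's methods, while its results call the WT mice littermates of the DKO mice. The labels do not say which library came from which strain, or whether the mice were littermates. All mice were kept on a C57BL/6 background and were aged 2 and 6 months or more, with no age assigned to a library. The number of mice behind each library is not given, so spreads between libraries may be partly technical.

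Heme is made in mitochondria, where ferrochelatase inserts iron into protoporphyrin as the last step. Heme oxygenases open the heme ring and release iron, carbon monoxide and biliverdin, and biliverdin reductases turn biliverdin into bilirubin. Freed or imported iron is stored in ferritin, a shell of heavy and light chains, or leaves the cell through ferroportin, while transferrin-bound iron enters through the transferrin receptor. Microglia and other macrophages take up heme and iron from dying cells and are an iron store of the brain. Hebp1, heme binding protein 1, binds heme and related porphyrins in the cytosol, and a peptide from its amino-terminal end is known as a ligand of formyl peptide receptors.

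Total counts were 23382114 to 25871082 in WT and 22483284 to 26109349 in DKO libraries. The 10 microglial markers summed to 68419 to 82844 CPM in every library (CPM, a count relative to the library's total scaled by TMM factors), while the summed red blood cell markers were 2.42 to 15.6 CPM in WT against 3.13 to 17.7 CPM in DKO libraries, with 0 of 5 tested red blood cell markers called in edgeR (1 at an unadjusted p under 0.05, and 0 in DESeq2 and limma voom). Border-associated macrophage markers summed to 178 to 311 CPM in WT against 139 to 248 CPM in DKO, where Cd163 and Lyve1 were at 0 in all libraries, and monocyte markers summed to 15.4 to 19.8 CPM in WT against 26.7 to 35.8 CPM in DKO. Oligodendrocyte markers summed to 79.8 to 87.8 CPM in WT against 67.8 to 82.9 CPM in DKO. The part of these cells in the values below was not tested. WT 3 stood apart from the other WT libraries, since the non-coding RNA Gm23935 held 20.3% of its TPM (a level per transcript length, of fixed sum in each library), against 2.85 to 6.60% in the other WT libraries and 23.2 to 26.6% in DKO. Counts of Bhlhe40 were 1 to 28 per library, too few to check the labels. Bhlhe41 had 35.8 ± 6.66 CPM in WT against 50.8 ± 8.45 CPM in DKO (SD, n = 5 in each), and the length of the transcripts behind its counts was 5998 ± 96.4 bases in WT and 2209 ± 362 bases in DKO. Its count was therefore not lower in the libraries labelled DKO, while its transcripts were shorter there. By library, this length was 5878 to 6133 bases in WT, with 5977 bases in WT 3, against 1851 to 2719 bases in DKO. The exons deleted in the knockout are not named in the sources used here.

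Hebp1 had 8.38, 7.33, 9.08, 3.70 and 6.01 CPM in WT libraries 1 to 5, and 168, 177, 183, 206 and 222 CPM in DKO libraries 1 to 5. Every DKO library was far above every WT library, and the lowest WT value was in WT 4. The means were 6.90 ± 2.13 CPM in WT against 191 ± 22.3 CPM in DKO, a ratio of 27.7, and the fitted log2 fold change was 4.79 with a standard error of 0.23. Of the 10 genes, 1, Hebp1, passed the threshold of 0.05 in edgeR's adjusted p, beside 6.19% of all 13916 genes tested (4.34% higher and 1.85% lower in DKO). Hebp1 was also the only 1 of the 10 whose WT and DKO libraries did not overlap in CPM, beside 7.62% of all tested genes (4.33% with DKO above and 3.29% with DKO below). Since the list was chosen from this contrast, nothing is read from these counts. In bulk samples, a change in the share of cells that carry an RNA and a change in RNA per cell cannot be told apart.

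**Figure D1:**
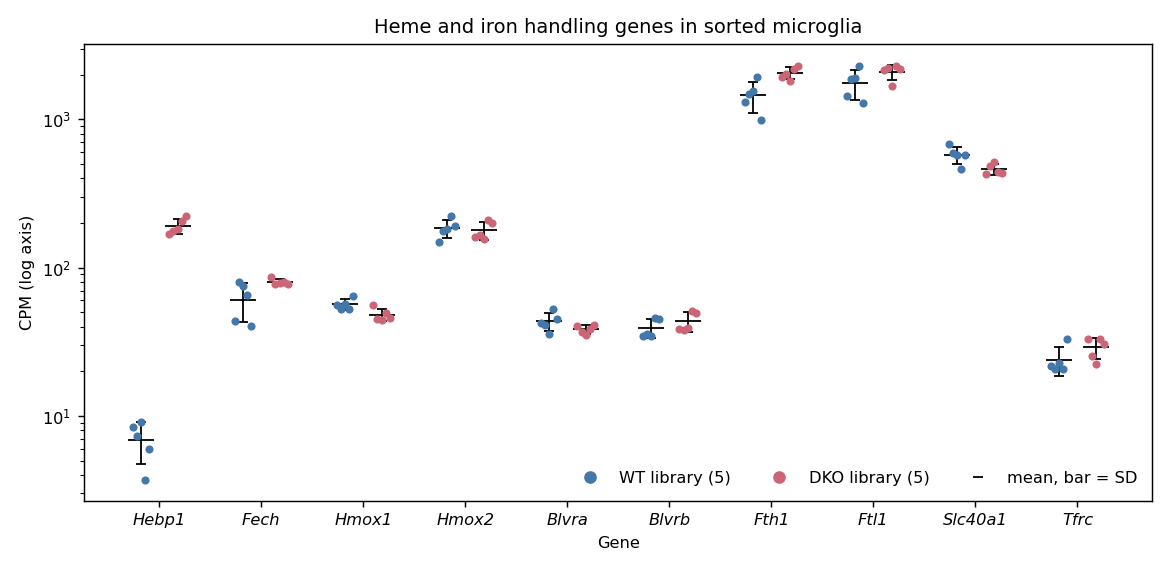
CPM of the 10 genes in each library, on a log axis, with WT libraries in blue and DKO libraries in red. Horizontal marks are means and bars are SDs of 5 libraries. Hebp1 lies at 3.70 to 9.08 CPM in WT against 168 to 222 CPM in DKO, and the libraries of the other 9 genes overlap between genotypes.

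Hebp1 lies on chromosome 6 at 135137522 to 135198022 on the minus strand (GRCm38). Its coding transcript has 4 exons and 1058 bases and starts at 135168215. The length that the authors' quantification gave to Hebp1 was 1085 ± 37.4 bases in WT and 1065 ± 2.41 bases in DKO, near that of the coding transcript. A short non-coding transcript of 2 exons and 215 bases begins at 135198022, in a first exon that overlaps the start of Fam234b on the opposite strand. BHLHE40 and BHLHE41 are known to bind the E-box CACGTG, so the 250 bases before the coding start site are shown, from RefSeq on GRCm38.p6, chr6:135168216-135168465, minus strand, with the E-box in capitals.
Hebp1 promoter: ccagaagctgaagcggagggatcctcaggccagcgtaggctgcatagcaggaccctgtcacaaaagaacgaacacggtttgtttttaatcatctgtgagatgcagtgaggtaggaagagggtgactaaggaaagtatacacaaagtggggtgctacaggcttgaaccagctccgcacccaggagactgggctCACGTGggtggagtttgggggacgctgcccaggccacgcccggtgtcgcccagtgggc
The motif occurs once, 58 to 53 bases before the start site. CACGTG, which reads the same on both strands, was present in 7.15% of 32851 RefSeq promoter windows of 300 bases (250 before to 50 after the start), or 8.09% of 27025 genes. Windows were at hand for 7 of the 10 genes, 12 windows in all, and Hebp1 was the only 1 of the 7 with the motif. Hmox1, Fech and Slc40a1 had no window. The antioxidant response element TGACNNNGC, searched on both strands, was in 12.4% of all windows and, among the 7 genes, only in that of Blvra, at 49 bases before the start and on the opposite strand. A match of letters is a description and does not show binding.

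The genome around Hebp1 held 30 other annotated genes within 500 kb, of which 12 were tested. Of these 12, 2 were called by edgeR, beside 6.19% of all tested genes, and nothing is read from so small a count. Fam234b, which overlaps the far end of Hebp1 on the opposite strand, had 61.9 ± 6.26 CPM in WT against 84.3 ± 2.71 CPM in DKO, with no overlap (log2 fold change 0.45, SE 0.09, edgeR adjusted p = 0.0140). The library kit does not mark strand, so reads in the shared bases cannot be assigned to either gene by strand. Fam234b was no longer past the threshold with upper-quartile factors (edgeR adjusted p = 0.0538) and had a log2 fold change of 0.08 on the scale log2(TPM + 1). Gpr19, an orphan G protein-coupled receptor gene, had 2.59 ± 0.691 CPM in WT against 1.17 ± 0.194 CPM in DKO (log2 fold change -1.14, SE 0.23, edgeR adjusted p = 0.0161), and was not past the threshold with effective length as an offset (edgeR adjusted p = 0.0744). Gpr19 overlaps the antisense gene 2810454H06Rik, so its reads are uncertain in the same way. The other 3 genes that overlap Hebp1, Gm22881, Gm34391 and Gm19434, had at most 9 counts in any library. The tested neighbours other than Hebp1 thus lay between log2 fold changes of -1.14 and 0.73, against 4.79 for Hebp1. Hebp1 shares chromosome 6 with both deleted genes, at a gap of 10.7 Mb to Bhlhe41 and 26.5 Mb to Bhlhe40, and the deletions and any linked sequence differences between the mice cannot be told apart.

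**Figure D2:**
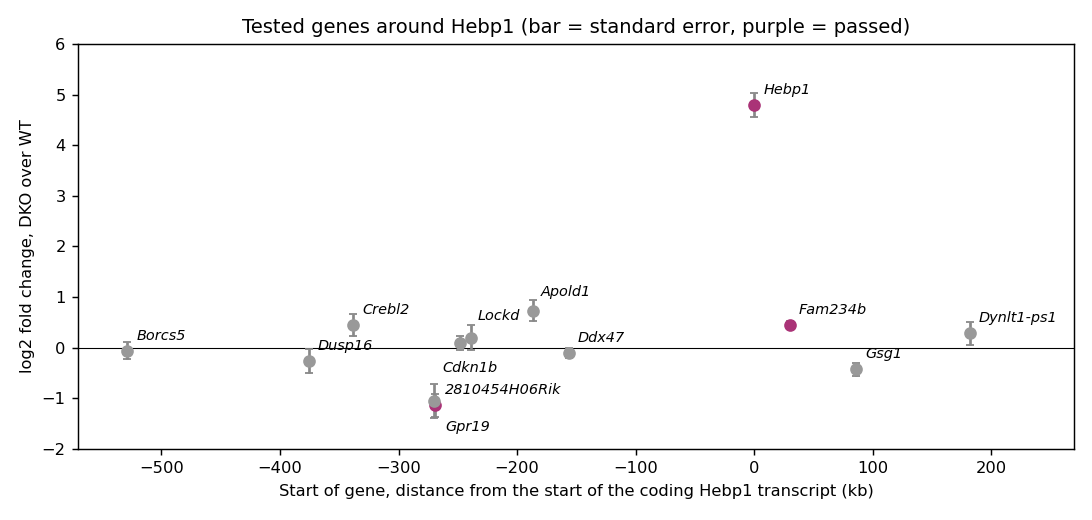
Fitted log2 fold change (DKO over WT) of the tested genes around Hebp1 against the distance of each gene's start from the start of the coding Hebp1 transcript, in kb. Bars are standard errors, and purple points passed the threshold. Hebp1 stands at 4.79, Fam234b at 0.45 and Gpr19 at -1.14.

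The genes most like Hebp1 were sought among 7822 genes of mean log2 CPM of at least 3, by the root mean square difference between log2 CPM profiles over the 10 libraries, each centred on its WT mean. Asns, asparagine synthetase, came closest with a difference of 0.62, against a median of 3.46 over all candidates. Asns averaged 2.88 ± 1.14 CPM across WT and 58.1 ± 25.2 CPM across DKO libraries, and Olfr1330, an olfactory receptor gene, 2.13 ± 0.556 and 33.8 ± 5.42 CPM, at a difference of 0.79. Tmem92, at a difference of 1.13, had 3.63 ± 0.874 CPM in WT against 35.2 ± 3.08 CPM in DKO. Plaur, the urokinase receptor, had 18.5 ± 2.99 and 169.95 ± 20.1 CPM at a difference of 1.23, and Eid1 had 4.58 ± 3.20 and 40.7 ± 17.9 CPM at a difference of 1.33. These genes were picked for their pattern, and their values are a description.

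The 10 genes spanned a wide range of levels, which are given in TPM because genes differ in length. In WT the order of mean TPM was Ftl1 at 4560 ± 983, Fth1 at 3526 ± 757, Slc40a1 at 251.4 ± 63.5, Hmox2 at 181 ± 19.4, Blvrb at 71.8 ± 10.6, Blvra at 65.4 ± 10.3, Hmox1 at 62.9 ± 6.64, Fech at 19.3 ± 5.21, Hebp1 at 11.2 ± 3.61 and Tfrc at 5.87 ± 2.27. The ferritin chains were thus above 99.8% of tested genes in WT, and Tfrc above 46.8%. Neighbours in this order had separate WT ranges at 3 steps, between Fth1 and Slc40a1, between Hmox2 and Blvrb and between Hmox1 and Fech, and overlapped at the other 6. In DKO, Hebp1 had 249.3 ± 18.1 TPM and was above Slc40a1, Hmox2, both biliverdin reductases, Hmox1, Fech and Tfrc in 5 of 5 libraries, and below both ferritin chains. Its place thus moved from 9 of 10 in WT to 3 of 10 in DKO.

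Fech, ferrochelatase, had 43.7, 80.5, 74.9, 64.8 and 40.5 CPM in WT libraries 1 to 5 and 87.1, 77.7, 79.1, 79.5 and 77.3 CPM in DKO libraries 1 to 5. WT 1 and WT 5 were the lowest, and WT 2 was the only WT library inside the DKO range. The log2 fold change of counts was 0.40 with a standard error of 0.18, and the mean level was 19.3 TPM in WT and 19.9 TPM in DKO. WT 1 and WT 5 also had 1.75% and 1.54% of counts from mitochondrial genes, against 0.986 to 1.16% in the other WT libraries and 1.04 to 1.58% in DKO. The DKO library with 1.58% was DKO 3, whose Fech was not low, at 79.1 CPM. The part of the mitochondrial share in the Fech values was not tested.

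The heme oxygenases did not separate the genotypes in CPM. Hmox1, the inducible enzyme (chromosome 8, 75093621 to 75100589, plus strand, GRCm38), had 56.2, 52.6, 56.6, 52.5 and 64.5 CPM in WT against 56.1, 45.1, 44.5, 49.4 and 45.8 CPM in DKO. DKO 1 lay inside the WT range and the other 4 DKO libraries below it, for a log2 fold change of -0.23 (SE 0.10). Hmox2, the constitutive enzyme (chromosome 16, 4726361 to 4766742, plus strand), had 149.7, 177, 182, 223 and 190.1 CPM in WT against 159.9, 165, 155, 209 and 200.2 CPM in DKO. All DKO libraries lay within the WT range, and the log2 fold change was -0.05 (SE 0.12). Summed, the heme oxygenases had 241 ± 26.3 CPM in WT against 226 ± 25.1 CPM in DKO.

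The biliverdin reductases were of similar level, with differences of opposite sign. Blvra (chromosome 2, 127070665 to 127097084, plus strand) had 42.4, 41.1, 35.8, 52.3 and 45.3 CPM in WT against 40.6, 36.8, 34.9, 38.4 and 41.1 CPM in DKO, for a log2 fold change of -0.18 (SE 0.11). Blvrb (chromosome 7, 27447978 to 27466144, plus strand), which also reduces flavins, had 34.7, 35.8, 34.4, 46.1 and 44.9 CPM in WT against 38.8, 37.8, 39.3, 51.0 and 49.7 CPM in DKO, for a log2 fold change of 0.15 (SE 0.13). The ranges of both genes overlapped, and their sum was 82.5 ± 11.5 CPM in WT against 81.7 ± 8.0 CPM in DKO. Within a library, the ratio of Blvrb to Blvra in TPM was 1.04 to 1.13 in WT and 1.25 to 1.66 in DKO. In counts, with no length correction, the same ratio was 0.818 to 0.989 in WT and 0.956 to 1.33 in DKO and overlapped.

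The ferritin chains were the most abundant of the 10 genes. Fth1, the heavy chain that oxidises iron (chromosome 19, 9980598 to 9985098, plus strand), had 1313, 1486, 1542, 1916 and 987 CPM in WT against 1934, 2034, 1813, 2192 and 2273 CPM in DKO. WT 5 was the lowest and WT 4 the only WT library inside the DKO range, and the log2 fold change was 0.50 (SE 0.15). Ftl1, the light chain (chromosome 7, 45457944 to 45459884, minus strand), had 1437, 1875, 1884, 2295 and 1288 CPM in WT against 2136, 2200.1, 1669, 2279.9 and 2166 CPM in DKO, for a log2 fold change of 0.25 (SE 0.15). The groups overlapped, with WT 4 above all DKO libraries and DKO 3 below 3 WT libraries. Summed, both chains had 3204 ± 734 CPM in WT against 4140 ± 402 CPM in DKO. In TPM, Ftl1 was instead lower in DKO (4560 against 4162 on average), as were Blvrb and Tfrc, against the sign of their CPM differences, and the large TPM share of Gm23935 in DKO lowers the TPM of all other genes in those libraries.

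The ratio of Fth1 to Ftl1 within a library does not depend on library scaling. It was 0.731 to 0.846 in WT and 0.854 to 1.03 in DKO in TPM, with no overlap, although the highest WT and the lowest DKO ratio were close. In counts the ratio was 0.766 to 0.913 in WT and 0.906 to 1.09 in DKO and overlapped slightly. Over all 36 pairs among the 9 genes other than Hebp1, the TPM ratio did not overlap between genotypes in 6, beside 10.1% of the 27658203 pairs of genes of at least 10 mean CPM. These 6 pairs were Blvra with Blvrb, Blvra with Fth1, Fth1 with Ftl1, Hmox1 with Fech, Hmox2 with Blvrb and Hmox2 with Fth1, and they share members, so they are not 6 separate results. Ferritin has many processed copies in the genome. The files held 14 further genes whose symbols begin with Ftl or Fth, of which 1, Ftl1-ps1, passed the filter, at 2.36 CPM in WT against 2.77 CPM in DKO, and the highest copy held 0.133% of the level of Ftl1. Reads that fit a copy as well as its parent could have been split between them.

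**Figure D3:**
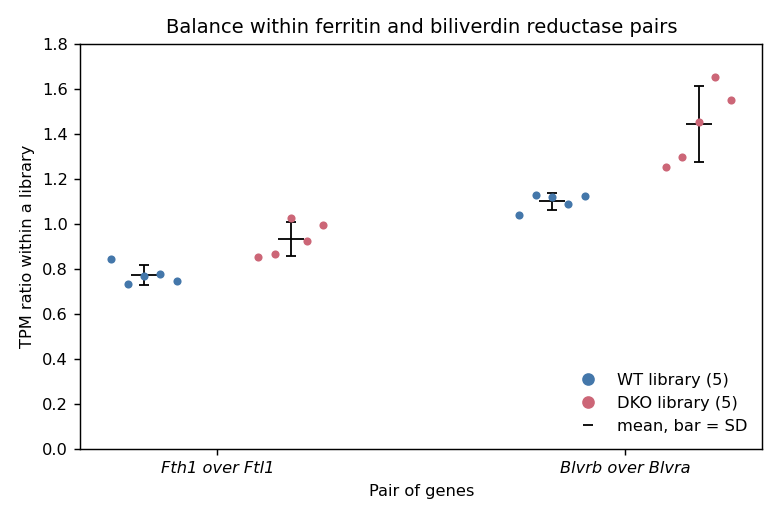
TPM ratio within each library of Fth1 to Ftl1 and of Blvrb to Blvra, with WT libraries in blue and DKO libraries in red, means as horizontal marks and SDs as bars. The Fth1 to Ftl1 ratio is 0.731 to 0.846 in WT and 0.854 to 1.03 in DKO, and the Blvrb to Blvra ratio 1.04 to 1.13 in WT and 1.25 to 1.66 in DKO.

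Slc40a1, ferroportin, the iron exporter (chromosome 1, 45908068 to 45926523, minus strand), had 677, 597, 576, 462 and 574 CPM in WT against 426, 487, 514, 443 and 434 CPM in DKO. WT 4 was the only WT library inside the DKO range, and the log2 fold change was -0.32 (SE 0.10). Tfrc, the transferrin receptor (chromosome 16, 32608920 to 32632794, plus strand), had 21.8, 20.7, 22.7, 20.9 and 33.2 CPM in WT against 32.8, 25.5, 22.5, 33.2 and 30.7 CPM in DKO, for a log2 fold change of 0.28 (SE 0.16). WT 5 stood with the higher DKO libraries and apart from the other WT libraries. WT 5 also had 15.6 CPM of red blood cell markers, against 2.42 to 3.02 CPM in the other WT libraries. In DKO libraries 1 to 5 these markers summed to 14.5, 17.7, 3.13, 10.3 and 9.85 CPM. Over both genotypes, libraries with 2.42 to 3.13 CPM of these markers had 20.7 to 22.7 CPM of Tfrc. Those with 9.85 to 17.7 CPM of the markers had 25.5 to 33.2 CPM of Tfrc, though within these the order was not that of Tfrc. The part of red blood cells in the Tfrc values was not tested. Ratios of Slc40a1 to Tfrc in TPM overlapped, at 19.2 to 74.1 in WT and 13.9 to 53.6 in DKO.

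Ferritin, ferroportin and the transferrin receptor are controlled after transcription through iron-responsive elements, short hairpins bound by iron regulatory proteins when iron is low. In the 5′ untranslated region an element blocks translation, and in the 3′ untranslated region of Tfrc the elements protect the RNA from decay, so RNA counts do not report protein for these genes. The hairpins are shown because these 4 genes share them, as found in GENCODE M21 transcripts on GRCm38 by a pattern (a C, 5 stem bases, CAGTGN and 5 pairing bases), with the loop in capitals.
Fth1, chr19:9982732-9982760, plus strand: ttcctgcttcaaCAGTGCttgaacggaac
Ftl1, chr7:45459779-45459807, minus strand: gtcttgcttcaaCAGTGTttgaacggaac
Slc40a1, chr1:45925465-45925493, minus strand: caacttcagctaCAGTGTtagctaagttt
Tfrc, chr16:32631219-32631247, plus strand: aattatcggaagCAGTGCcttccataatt
Tfrc, chr16:32631598-32631626, plus strand: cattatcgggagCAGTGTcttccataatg
Tfrc, chr16:32631663-32631691, plus strand: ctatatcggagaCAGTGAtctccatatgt
Tfrc, chr16:32631710-32631738, plus strand: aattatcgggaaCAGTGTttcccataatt
The first 3 lie in 5′ untranslated regions and the 4 of Tfrc in its 3′ untranslated region. The pattern was found in the untranslated regions of 160 of 21877 coding genes (0.731%), and in these 4 of the 10 genes. The log2 fold changes of RNA counts of the genes with a 5′ element were 0.50 for Fth1, 0.25 for Ftl1 and -0.32 for Slc40a1. These RNA values cannot show whether the elements acted, since a 5′ element works on translation.

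The deposited lengths were compared between genotypes because a change of transcript would alter the TPM. None of the 10 genes passed in limma on log2 length (Blvrb and Ftl1 had an unadjusted p under 0.05), where 3 of 10377 genes (0.0289%) did, and the smallest limma adjusted p among the members was 0.574. Fech and Fth1 had 1 fixed length in all libraries and could not be compared. Tfrc had a length of 2214 bases in WT 4 and 2790 bases in DKO 4, against 4802 to 4890 bases in the other libraries. The elements of Tfrc printed above lie in the last part of the transcript of 4890 bases, beyond the end of a coding transcript of 1860 bases at 32623741. Those shorter lengths go with the highest Tfrc levels per length, 9.27 TPM in WT 4 and 8.75 TPM in DKO 4, while the Tfrc counts of the same libraries, 20.9 and 33.2 CPM, were shared or nearly shared by other libraries of their groups.

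Libraries numbered 1 to 3 of both genotypes are listed before those numbered 4 to 5, and differences were also taken within each set. The Hebp1 difference in mean log2 CPM was 4.41 in the first set and 5.50 in the second, and that of Fth1 was 0.42 and 0.70. Slc40a1 had -0.38 and -0.23. On the scale log2(TPM + 1), where the median of all genes was -0.26, Hebp1 stood at 4.42, Hmox1 at -0.59, Hmox2 at -0.45, Blvra at -0.54 and Slc40a1 at -0.71, each below its value on counts. Over all 23 other settings tried, the log2 fold change of Hebp1 was 4.42 to 4.91.

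The surrounding pathway was read from 8 lists of 100 genes in all, of which 74 were tested, 1 was higher and 3 were lower in DKO by edgeR (5.41% called, beside 6.19% of all tested genes), with a median log2 fold change of -0.08 against -0.01 over all genes. The gene that rose was Cp, ceruloplasmin, a copper enzyme that oxidises iron leaving the cell beside ferroportin. It had 2.19, 2.5, 1.26, 1.89 and 1.16 CPM in WT against 8.23, 8.29, 5.40, 8.06 and 9.21 CPM in DKO (log2 fold change 2.12, SE 0.24, edgeR adjusted p = 0.00044). All DKO libraries were above all WT libraries. Slc7a11, the cystine transporter that feeds glutathione synthesis, had 3.92, 3.09, 4.18, 4.19 and 4.32 CPM in WT against 1.88, 1.25, 2.31, 1.79 and 1.19 CPM in DKO (log2 fold change -1.22, SE 0.22, edgeR adjusted p = 0.00747). All DKO libraries were below all WT libraries. Both genes passed in all 23 other settings, but their sizes moved. The log2 fold change of Cp was 1.47 with effective length as an offset (edgeR adjusted p = 0.0485), 1.17 on the scale log2(TPM + 0.1) (limma adjusted p = 0.0465) and 0.70 on log2(TPM + 1), where that of Slc7a11 was -0.43. The length given to Cp ran from 790.3 to 4350.2 bases across WT libraries and from 1859 to 2862 bases across DKO libraries.

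Hfe, the hemochromatosis protein that binds the transferrin receptor, fell from 414 ± 43.5 CPM in WT to 287 ± 53.1 CPM in DKO (log2 fold change -0.53, SE 0.13, edgeR adjusted p = 0.0348). Mafg, a small Maf protein that partners NRF2 and BACH1 on antioxidant response elements, fell from 60.9 ± 8.55 to 43.3 ± 5.33 CPM (log2 fold change -0.49, SE 0.12, edgeR adjusted p = 0.0353). The libraries of both genes did not overlap, but their calls were near the threshold. Leaving out any 1 of the WT libraries except WT 3, or any 1 of DKO 1 to 3, put the edgeR adjusted p of Hfe at 0.0671 to 0.0969. For Mafg, leaving out any 1 of WT 1, WT 2 and WT 5, or any 1 of the DKO libraries except DKO 3, put it at 0.0640 to 0.0896.

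**Figure D4:**
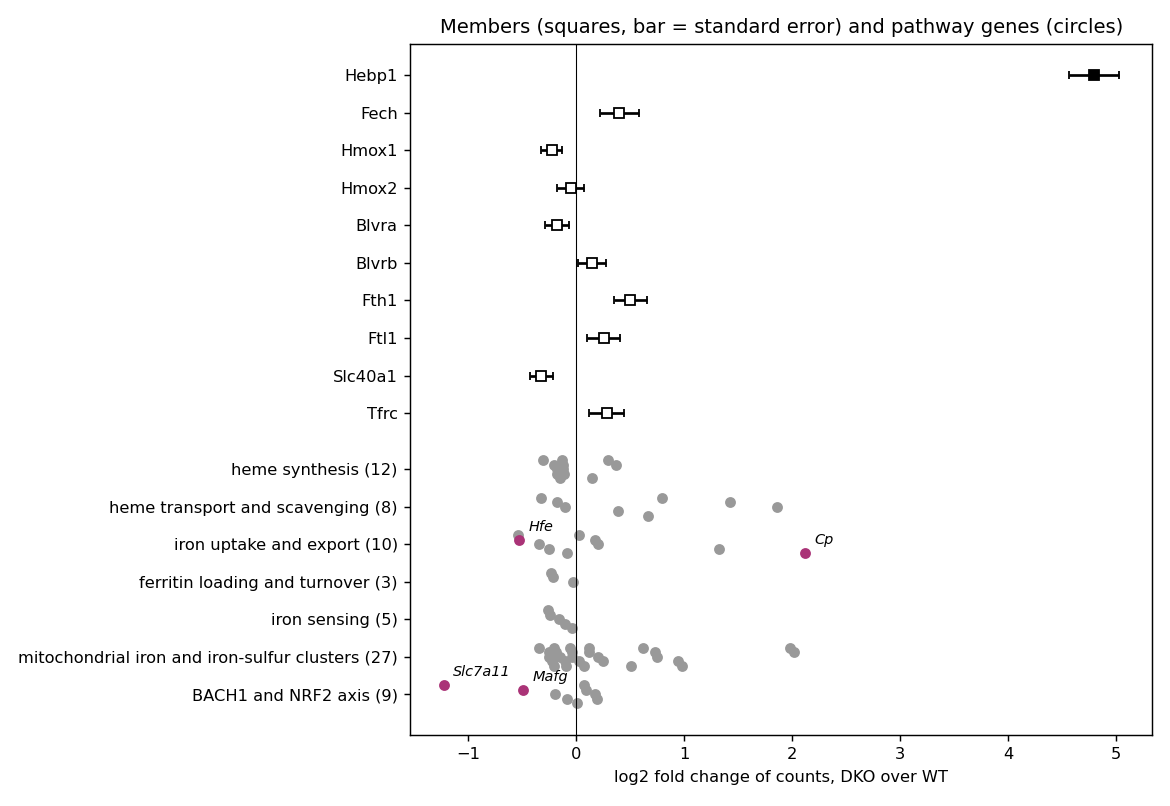
Fitted log2 fold changes of counts (DKO over WT) for the 10 genes, as squares with standard errors, and for the tested genes of 7 pathway lists, as circles with the number of tested genes in brackets. A filled square and purple circles passed the threshold in edgeR. Hebp1 stands at 4.79, Cp at 2.12 and Slc7a11 at -1.22, and the other 9 squares lie between -0.32 and 0.50.

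Of the other 6 lists, 5 held tested genes, 55 in all, with 0 calls in edgeR, where 14 had an unadjusted p under 0.05, against 5 calls in DESeq2 and 4 in limma voom, which called 11.7% and 8.32% of all genes. Heme synthesis, with 12 tested genes, lay between log2 fold changes of -0.31 and 0.37, and its most abundant genes were Tmem14c, a mitochondrial porphyrin transporter (153 against 140.2 CPM), and Alas1, the first enzyme of the pathway (135 ± 5.70 against 122 ± 8.12 CPM). In heme transport and scavenging, 8 were tested, among them Slc46a1, a heme and folate transporter (396 ± 74.3 against 351 ± 45.4 CPM), and Lrp1, the receptor for hemopexin-bound heme (234 ± 103 against 404 ± 126 CPM). Hebp2, the relative of Hebp1, had 0.615 CPM in WT against 0.803 CPM in DKO (edgeR adjusted p = 0.652). In ferritin loading and turnover, Ncoa4, the receptor that brings ferritin to autophagy, had 424 ± 73.3 against 366 ± 37.7 CPM, and Pcbp1, an iron chaperone, 73.8 ± 6.41 against 72.0 ± 0.998 CPM. Among 5 iron sensing genes, Fbxl5, which marks an iron regulatory protein for degradation, had 89.9 ± 21.2 against 74.8 ± 9.13 CPM, and Cisd2 73.2 ± 7.46 against 71.1 ± 7.69 CPM. The 27 genes of mitochondrial iron and iron-sulfur clusters included Hspa9, a chaperone of cluster transfer, at 103 ± 10.2 against 112 ± 5.39 CPM, and Isca1 at 88.1 ± 6.42 against 89.6 ± 6.96 CPM. The 7 formyl peptide receptor genes had 0 counts in every library, and 3 counts, the limit that a count of 0 allows, correspond to 0.108 to 0.134 CPM per library, counting error only.

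Leaving out WT 3, the library with a DKO-like share of Gm23935, raised the count of pathway genes that were higher in DKO from 1 to 9 in edgeR, while over all genes the count rose from 604 to 1174. The 8 added genes are named here after their values were seen. In all 8, WT 3 was above the other WT libraries and within or above the DKO range. The 8 were picked because they passed only without WT 3, which favours such values, so nothing is read from this count. Iscu, the scaffold on which iron-sulfur clusters are built, had 9.0, 13.2, 92.3, 13.1 and 6.80 CPM in WT libraries 1 to 5 and 138, 140.5, 60.4, 75.5 and 129 CPM in DKO. Flvcr1, a heme exporter, had 3.17, 5.76, 21.6, 3.41 and 4.17 CPM in WT against 22.4, 19.7, 18.4, 19.6 and 21.9 CPM in DKO. Slc48a1, which carries heme out of the lysosome, had 62.3 CPM in WT 3, 19.3 to 47.2 CPM in the other WT libraries and 55.5 to 68.1 CPM in DKO. Pgrmc2, an intracellular heme chaperone, had 15 CPM in WT 3, 2.88 to 3.78 CPM in the other WT libraries and 9.72 to 30.1 CPM in DKO. Slc22a17, a receptor for lipocalin-bound iron, had 30.4, 5.45 to 8.52 and 20.6 to 38.4 CPM in the same order. Glrx5, Bola3 and Iba57, of iron-sulfur cluster assembly, were the other 3. Hebp1 in WT 3, at 9.08 CPM, was the highest WT value but close to WT 1, and without WT 3 its log2 fold change was 4.91 (SE 0.23). Why WT 3 differs was not tested.

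**Figure D5:**
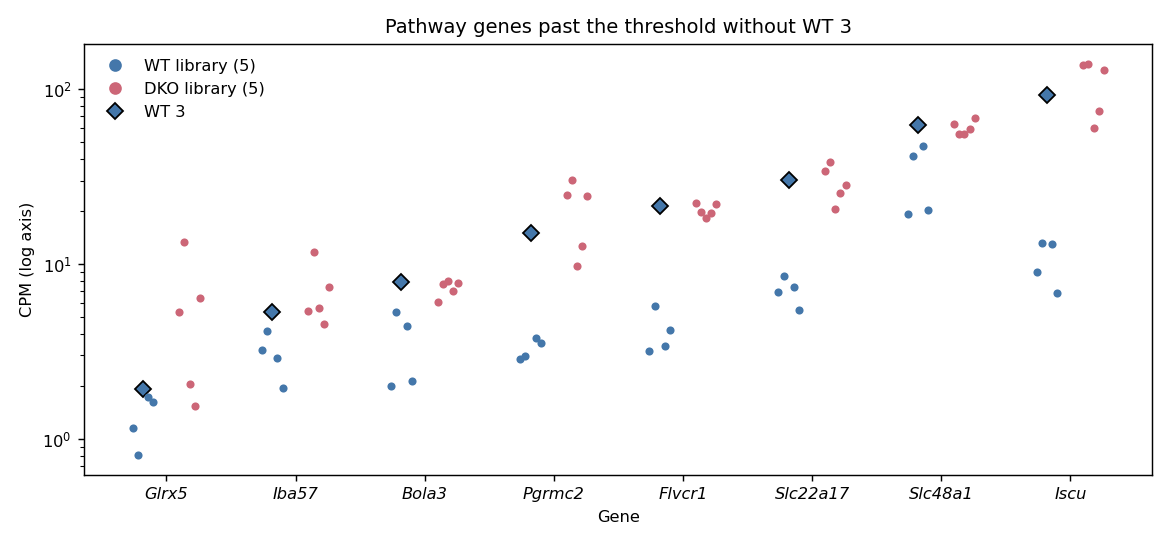
CPM in each library, on a log axis, of the 8 pathway genes that passed the threshold when WT 3 was left out, with WT libraries in blue, DKO libraries in red and WT 3 as a diamond. For Iscu, WT 3 stands at 92.3 CPM, between 60.4 and 140.5 CPM in DKO and above 6.80 to 13.2 CPM in the other WT libraries.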

How the data were processed

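The 10 genes, the lists and the named genes were chosen with earlier results of these data known. Microglia were double sorted as live Ly6C-, Ly6G-, MHCII-, CD38-, CD45.2+ and CD11b+ cells from brain without olfactory bulb and cerebellum, RNA quality of the mouse samples was not assessed, and libraries were made with an unstranded poly(A) kit. Per the submitters' processing notes, cutadapt 2.6, FastQC 0.11.8 and STAR 2.5.3a were used, with mm10 as the genome. For the counting tool and its annotation, names were not given in the sources used here. Deposited values per gene are an estimated count without normalization, a TPM of fixed sum per library from the authors' tool, and the length of its transcripts, as annotated and effective, in bases.

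Estimated counts were rounded, filtered with filterByExpr (minimum count 10), scaled by TMM and fitted with edgeR 4.0.16 (glmQLFTest, DKO over WT, R 4.3.3) over 13916 genes, with Benjamini-Hochberg adjustment and a threshold of 0.05. The study's mixed model, dream, was not used. CPM were scaled by the same factors, errors are SDs of 5 libraries unless named, the SE of a log2 fold change is its size divided by the square root of F, and intervals from counts would cover counting error only. Lengths were tested with limma 3.58.1 on log2 length. Scripts were tested on simulated data. Coordinates are from GENCODE M21 on GRCm38, matched by gene ID without version for 53668 of 53697 IDs, and the version also matched for 52806. No pair of libraries had equal counts in over 1.93% of tested genes. Named genes were the 10 genes, Bhlhe40 and Bhlhe41, pathway genes past the threshold or, for lists without one, the 2 most abundant, genes within 500 kb of Hebp1 that passed or overlap it, the 5 profiles most like Hebp1, and ferritin copies of at least 1 mean CPM. Exceptions are the WT 3 genes, the untested genes at 0 and Hebp2. Alternatives were other scalings, DESeq2 1.42.0, limma voom, limma on log2(TPM + 1) and log2(TPM + 0.1), other filters, a length offset, a replicate block, a term for the library sets, and leaving out libraries.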

Additional observations from a re-analysis of the deposited data

Results flagged for a closer look

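Of 84 groups of 5 libraries examined, 7 had a library that stood apart from the other 4 by Dixon's test, and chance gives about 1 in 20. Fech was 87.1 CPM in DKO 1, against 77.3 to 79.5 CPM in the other DKO libraries. Ftl1 was 1669 CPM in DKO 3, against 2136 to 2279.9 CPM. Tfrc was 33.2 CPM in WT 5, against 20.7 to 22.7 CPM in the other WT libraries. Asns was 102 CPM in DKO 1, against 39.5 to 52.9 CPM, and Eid1 was 10.3 CPM in WT 3, against 2.97 to 3.38 CPM. The length given to Tfrc was 2214 bases in WT 4, against 4802 to 4890 bases, and 2790 bases in DKO 4, against 4890 bases.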

How the results depend on the processing

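The 10 genes were chosen from this contrast, so their counts are given beside the share of all genes called in the same setting, and nothing is read from them. Hebp1 was counted in all 23 settings. The count was 2 with DESeq2 (Fth1 added, 11.7% of all genes called), 2 with a term for the library sets (Slc40a1 added, 10.3%), 5 with limma on log2(TPM + 1) or log2(TPM + 0.1) (Hmox1, Hmox2, Blvra and Slc40a1 added, 34.6%), and 1 to 3 when a library was left out (2.83 to 11.4%), with 3 without WT 4 (Fth1 and Slc40a1 added, 3.74%). Genes higher in DKO numbered 1071 with DESeq2, 366 with the replicate block and 314 without WT 1 and WT 5. Genes lower in DKO numbered 447 with library size only, 466 with upper-quartile factors, 558 with DESeq2, 575 with the set term, 4187 and 4185 with TPM + 1 and TPM + 0.1, and 135 without WT 1 and WT 5. Pathway genes higher numbered 3 with upper-quartile factors, without a count filter and with the set term, and 5 with DESeq2, voom and both TPM scales. Pathway genes lower numbered 5 with upper-quartile factors and DESeq2, 6 with library size only and the set term, 35 with both TPM scales and 1 without WT 1 and WT 5. With 1 library left out, genes higher numbered 279 to 1174, genes lower 119 to 444, pathway genes higher 1 to 9 and lower 1 to 3, and genes with a length difference 3 to 26. The highest counts of genes higher, genes lower, pathway genes higher and length differences were all without WT 3. On the TPM scales with + 1 and + 0.1, Isca1 changed sign to -0.34 and -0.35 and Hspa9, which did not pass in any setting, to -0.24 on both. Of all calls, 70.1% were higher in DKO, against 53.7% with library size only, 54.6% with upper-quartile factors, 59.8% with the set term, and 13% and 13.2% on the TPM scales, where the median of all genes was -0.26 and -0.35. The causes were not tested.

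Same-numbered WT and DKO libraries had correlations of deviations of -0.38 to 0.28, with 3 of 5 pairs over 0.1 and 0 of 5 best with its own number, so the numbers were not taken as a pairing. With the replicate block, genes lower numbered 181, 1 of the 10 genes passed, and 0 genes had a length difference. Mafg (edgeR adjusted p = 0.0698) and Fam234b (edgeR adjusted p = 0.0513) were not past the threshold under the block. With WT 1 and WT 5 left out, neither Hfe (edgeR adjusted p = 0.134) nor Mafg (edgeR adjusted p = 0.159) passed, and Mafg did not without a count filter (edgeR adjusted p = 0.0579). Low counts limit Bhlhe40 and the 26 pathway genes that were not tested.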

Other observations

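Hebp1, Bhlhe40 and Bhlhe41 lie on chromosome 6. Among tested genes within 20 Mb of Bhlhe41, 11 were higher and 6 lower in DKO out of 114 (14.9%), and within 20 Mb of Bhlhe40, 10 were higher and 5 lower out of 227 (6.61%), beside 6.19% of all tested genes. The 11 include Hebp1, which was chosen from this contrast, and Fam234b, and the 6 include Gpr19, so these counts are a description. Asns, which came closest to the Hebp1 profile, also lies on chromosome 6, at 7675169 to 7693254, outside both of these spans. Bhlhe40 starts at 108660629 and Bhlhe41 at 145858243. The other genes with profiles most like Hebp1, Olfr1330, Tmem92, Plaur and Eid1, lie on chromosomes 4, 11, 7 and 2.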
